A study of Rattus norvegicus with 16 samples.

Results

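The small RNA reads of 6 hairpins of the striated muscle miRNAs, rno-mir-1, rno-mir-133a, rno-mir-133b, rno-mir-206, rno-mir-208 and rno-mir-499 (here without the species prefix), were analysed in 16 rat libraries. The hairpins were taken by their names in the deposited position files, which hold 392 hairpins, and their reads fell on 12 of the 712 hairpin arms with reads. The libraries came from adult male rats of 2 inbred strains, BN-Lx (a congenic Brown Norway strain) and SHR (the spontaneously hypertensive rat), and the labels name no treatment. 1 rat of each strain gave whole heart, brain, kidney, spleen, testis and liver (the six-tissue set), and 4 further livers came from 2 more rats of each strain, so that each strain has livers 1, 2 and 3. Strain, rat and, outside liver, the single library of a tissue cannot be told apart.

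These miRNAs are the classical regulators of striated muscle. mir-1 and mir-133a are made from shared primary transcripts in heart and skeletal muscle, where mir-1 is known to promote differentiation and mir-133 to restrain it. mir-206 and mir-133b form a similar pair that is known chiefly from skeletal muscle. mir-208 and mir-499 lie in genes of myosin heavy chains and are known to act on the choice between fast and slow myosins.

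The mature sequences are shown because their likeness decides what the reads can tell apart. They are RefSeq sequences (build GRCr8), written 5′ to 3′, with the seed (bases 2 to 8) in capitals.
mir-1-3p: uGGAAUGUaaagaaguguguau
mir-206-3p: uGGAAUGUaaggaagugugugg
mir-133a-3p: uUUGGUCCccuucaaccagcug
mir-133b-3p: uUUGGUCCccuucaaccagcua
mir-133a-5p: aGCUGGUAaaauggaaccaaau
mir-208-5p: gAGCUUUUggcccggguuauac
mir-208-3p: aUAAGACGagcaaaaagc
mir-499-5p: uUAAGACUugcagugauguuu
mir-499-3p: aACAUCACagcaagucugugcu

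mir-1-3p and mir-206-3p have the same seed and the same base at 19 of 22 positions. Counted from 1 at the 5′ end of mir-1-3p, they differ by A11G, A21G and U22G. mir-133a-3p and mir-133b-3p also have one seed between them and differ only in the last base, G22A. The seeds of mir-208-3p and mir-499-5p are alike at 6 of 7 positions and differ by G8U.

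In GRCr8 the hairpins of mir-1 (chr18:2160327-2160413) and mir-133a (chr18:2157872-2157958) lie on the minus strand, 2368 bases apart, within the span of the gene Mib1. The hairpins of mir-206 (chr9:30590697-30590780) and mir-133b (chr9:30594582-30594665) lie on the plus strand, 3801 bases apart, within LOC120094648. mir-208 (RefSeq mir-208a, chr15:32395552-32395634, minus strand) lies within Myh6, which encodes the alpha myosin heavy chain. mir-499 (chr3:164570612-164570676, plus strand) lies within Myh7b, a further myosin heavy chain gene. Exons and introns of these genes were not analysed here.

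The 10 six-tissue libraries other than testis held 403453 to 1064894 reads on hairpins, the testis libraries 26880 and 29131, and the further livers 1167607 to 3229461. A count of 3 reads, taken here as the limit that a count of 0 allows, was worth 103 and 111.6 RPM (reads scaled to a library total of 1000000) in SHR and BN-Lx testis but at most 7.44 RPM in any other library. The hepatocyte miRNA mir-122 had 344195 to 496685 RPM in the 6 livers and at most 3423 RPM elsewhere. The smooth muscle miRNAs mir-143 and mir-145 together had 180078 and 194476 RPM in SHR and BN-Lx heart and 20332 to 141481 RPM in the other tissues of the six-tissue set, so heart also had the highest level of this list. Intervals given for single libraries are exact 95% intervals and cover counting error only.

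The first question was how far these miRNAs belong to heart. In BN-Lx heart the 6 hairpins took 13371 reads, which is 3.31% of the library (3.26% to 3.37%). In SHR heart they took 27384 reads, or 4.34% (4.29% to 4.39%). The highest value in any other library of the six-tissue set was 0.0298% (8 reads, 0.0128% to 0.0586%), in BN-Lx testis. The heart value was 111 times that of the next tissue of the same rat in BN-Lx (56.5 to 258) and 158 times in SHR (80.3 to 366), with testis next in both on 8 reads each. With reads of at least 20 nt the next libraries were BN-Lx liver 1 and SHR kidney, and the ratios 133.03 (109 to 164) and 262 (213 to 325). Both hearts thus lay far above every other tissue. In whole tissue, a lower level elsewhere can mean fewer muscle cells or less of the miRNA per cell, and these cannot be told apart.

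**Figure D1:**
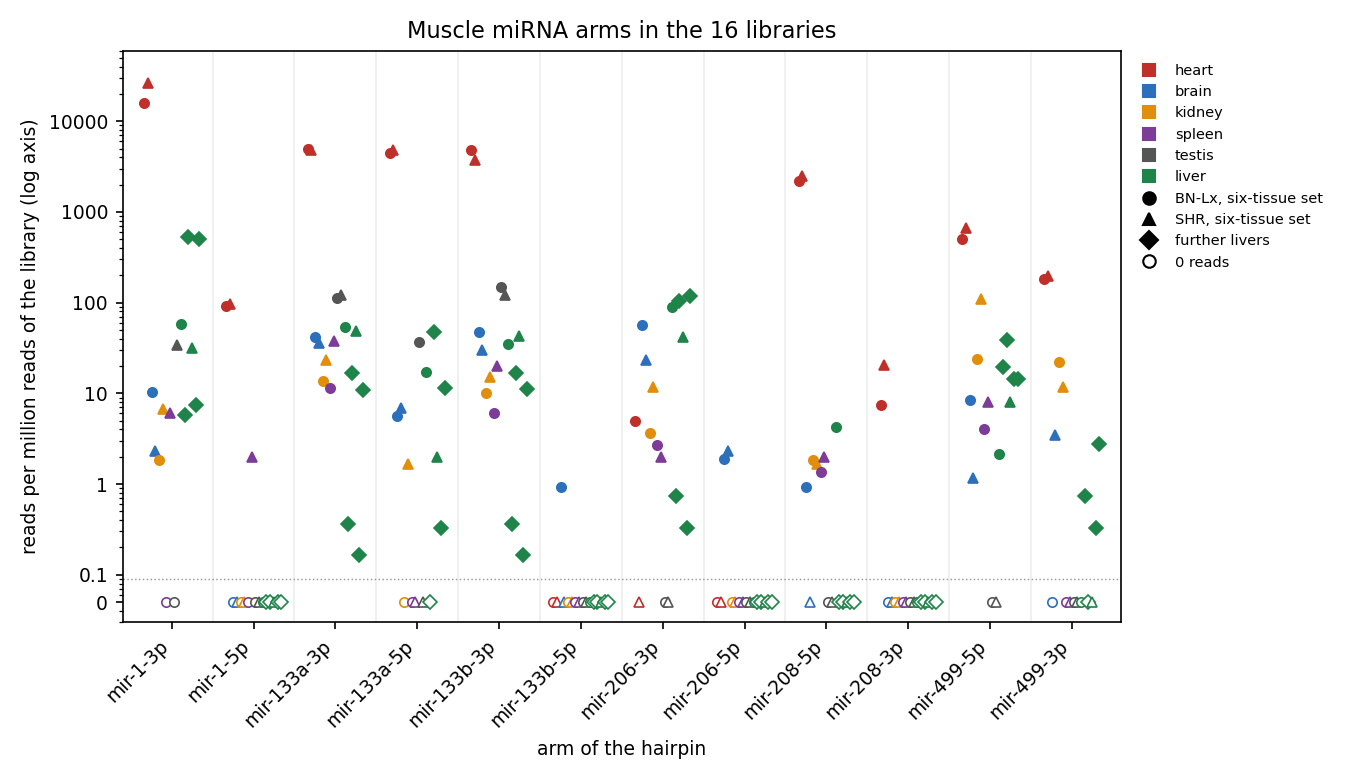
RPM (log axis) for the 12 arms, with 1 point for each of the 16 libraries, coloured by tissue; hollow points below the dotted line are libraries with 0 reads. The red heart points lie above all others for mir-1, mir-133a-3p, mir-133a-5p, mir-133b-3p, mir-208 and mir-499, whereas for mir-206-3p the BN-Lx heart holds 2 reads and the SHR heart none.

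mir-1-3p was the most abundant member. BN-Lx heart held 6413 reads of it (15895 RPM), while SHR heart held 16791 (26633 RPM), a mean of 21264 ± 7592 RPM (SD, n = 2). By reads it ranked 20 of 409 arms in the BN-Lx and 9 of 423 in the SHR heart. In the 10 other libraries of the six-tissue set it had between 0 and 27 reads, with a median of 6.36 RPM and the highest value, 57.7 RPM, in BN-Lx liver 1. Heart and the other tissues did not overlap, but the share of all arms without overlap was not counted. The BN-Lx heart was 276 times the next tissue of that rat (189 to 418).

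mir-1-5p, the opposite strand of the duplex, was read 37 times in BN-Lx and 61 times in SHR heart, against 1 read in SHR spleen and none in any other library. It was at least 32.6-fold higher in BN-Lx heart than in BN-Lx brain, the deepest library of that rat, but BN-Lx testis was too shallow to show a difference, since its limit of 111.6 RPM lies above the 91.7 RPM of heart. Its reads did not start where RefSeq places this arm. Of the 98 heart reads, 97 began 2 bases further in, which gives another seed. The form read in heart and the RefSeq form are shown for that reason.
mir-1-5p as read: aCAUACUUcuuuauguacccau
mir-1-5p in RefSeq: gCACAUACuucuuuauguaccc

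For mir-133a-3p the BN-Lx heart gave 2009 reads (4980 RPM) and the SHR heart 3012 (4777 RPM). In the other 10 libraries it ranged from 11.5 to 120 RPM, with a median of 39.8 RPM and the 2 highest values in testis, where they rest on 3 and 3.5 reads. Fractions of a read arise because the authors divided a read that matches several hairpins evenly among them. mir-133b-3p had 1933 reads (4791 RPM) and 2374 (3765 RPM) in the hearts and 6.10 to 148.8 RPM elsewhere, with a median of 32.7 RPM. Neither arm overlapped between heart and the other tissues, again with no share over all arms to set beside it. Both were nonetheless assigned reads in all 10 other libraries, which mir-1-3p was not. For mir-133b-3p this rests in part on the even division. In BN-Lx kidney its 5.5 reads were all shares of reads that also match mir-133a, and 0 were of mir-133b alone.

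mir-133a-5p is the other strand of the mir-133a duplex. BN-Lx heart gave 1804 reads of it (4471 RPM) and SHR heart 3013 (4779 RPM). That was near the level of the 3′ arm as its reads were divided. Of the 3′ reads of mir-133a and mir-133b, 79.5% in BN-Lx and 69.2% in SHR heart were shared, so the likeness depends on the even division. Elsewhere in the six-tissue set BN-Lx liver 1 had the most, 8 reads, and 4 of the 10 libraries held none. mir-133b-5p had a single read in all 16 libraries, in BN-Lx brain.

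mir-208, known as a heart miRNA from its place in the alpha myosin gene, was read almost only from its 5′ arm. The BN-Lx heart held 2216 RPM and the SHR heart 2501 RPM of mir-208-5p, a mean of 2359 ± 202 RPM (SD, n = 2). Of the other 14 libraries 6 held 1 or 2 reads and 8 held none. The BN-Lx heart was 519 times the next tissue of that rat, which had 2 reads (143 to 4289). mir-208-3p was read 3 times in BN-Lx and 13 times in SHR heart and not in the other 14 libraries. The related mir-208b, which lies in Myh7, 25980 bases from mir-208, had 5 reads from its 3′ arm in each heart, 1 and 3 reads from its 5′ arm in BN-Lx and SHR heart, and 1 further read in SHR testis.

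mir-499 was lower in heart and less confined to it. The hearts held 202 (BN-Lx, 500.7 RPM) and 418 (SHR, 663 RPM) reads of mir-499-5p. Kidney came next in both rats, with 13 reads (23.9 RPM) in BN-Lx and 65 reads (108.7 RPM) in SHR. Heart was 21.0 times kidney in BN-Lx (11.98 to 40.04) and 6.10 times in SHR (4.69 to 8.05). mir-499-3p had 74 and 125 reads in the hearts of BN-Lx and SHR, 12 and 7 in kidney and at most 3 in any other library of the six-tissue set. The hearts stood above kidney in both strains, and each kidney above brain, spleen and liver 1 of its own rat, while testis, with 0 reads of mir-499, was too shallow to be placed.

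mir-206 was the exception. mir-206-3p was read 2 times in BN-Lx heart (4.96 RPM), and 0 of the 630467 reads of SHR heart were of it, which allows up to 4.76 RPM. It had 60 and 20 reads in brain of BN-Lx and SHR (56.3 and 23.2 RPM), and 42 and 21 reads in liver 1 (89.7 and 41.9 RPM). Kidney held 2 and 7 reads, spleen 2 and 1, and testis none. Brain and liver 1 lay above heart in both strains, and their own ranges overlapped. The level in BN-Lx heart was 0.0552 times that of liver 1 of the same rat (0.00648 to 0.212). mir-206-5p had 2 reads in brain of each strain and no other read.

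These differences were tested in 1 fit of edgeR's quasi-likelihood test over 457 arms of the 12 six-tissue libraries, with tissue and strain as terms and Benjamini-Hochberg adjustment. Against the mean of the other 5 tissues, 8 of the 9 member arms tested were higher in heart and 0 lower, where 12.7% of all arms were called higher and 7% lower. The arm not called was mir-206-3p (edgeR adjusted p = 1). mir-133b-5p, mir-206-5p and mir-208-3p had too few reads to be tested. The filter for low counts used the tissues as groups. mir-1-5p, mir-133a-5p, mir-208-5p and mir-499-3p passed it through heart, with 1, 23, 7 and 22 reads in the 10 other libraries. For these arms a call of higher in heart was largely set by the filter, so the count of 8 is no support of its own. The log2 difference was 11.65 (standard error 0.52, edgeR adjusted p = 7.69e-09) for mir-1-3p, 7.44 (0.34, adjusted p = 7.69e-09) for mir-133a-3p and 7.58 (0.35, adjusted p = 7.69e-09) for mir-133b-3p. The median of all arms in this comparison was -0.33. The other 5 arms called, mir-1-5p, mir-133a-5p, mir-208-5p, mir-499-3p and mir-499-5p, had edgeR adjusted p values between 2.14e-08 and 0.000221, and their fitted differences are not given because at least 1 tissue held no read of each. Scaling by total reads kept all 8 calls but moved the median of all arms to -0.82 and the calls over all arms from 58 higher and 32 lower to 45 higher and 64 lower.

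In the same fit the 8 arms were also called higher in heart than in each tissue taken alone, where the share of all arms called higher was 22.1% against brain, 7.88% against kidney, 11.4% against liver, 9.41% against spleen and 16.4% against testis. No member arm was lower in heart than in kidney, spleen or testis, where 8.32%, 11.8% and 12.9% of all arms were. The smallest of these differences was that of mir-499-5p against kidney, 3.74 on the log2 scale (standard error 0.85, edgeR adjusted p = 0.0114). Without the BN-Lx or the SHR heart that adjusted p was 0.0525 or 0.074, and that of mir-499-3p against kidney rose from 0.0249 to 0.194 or 0.111, so these calls need both hearts. The calls of mir-1-5p against kidney, liver, spleen and testis were also lost without either heart (edgeR adjusted p between 0.0565 and 0.199). Its call against testis (edgeR adjusted p = 0.0443) was lost as well with RLE (0.0698), ocm (0.137) or total-read scaling (0.143) and with all 16 libraries (0.0635), and the 0 reads of the testis libraries allow levels above those of heart. mir-1-3p, mir-133a-3p, mir-133a-5p, mir-133b-3p and mir-208-5p kept every one of these calls under each edgeR alternative run. The calls of mir-1-5p, mir-133a-5p, mir-208-5p and mir-499-3p were again largely set by the filter, so keeping them is no support. mir-206-3p was lower in heart than in brain, by a log2 difference of -3.12 (1.19, edgeR adjusted p = 0.0444), where 33.5% of all arms were called lower. It was also lower than in liver, by -5.10 (1.18, edgeR adjusted p = 0.0115), where 8.97% of all arms were called lower. Without the SHR heart, which holds 0 reads of it, edgeR gave -2.16 against brain (adjusted p = 0.248) and -4.19 against liver (adjusted p = 0.11), so both calls need that library. With all 16 libraries both were lost too, at -3.14 against brain (edgeR adjusted p = 0.262) and -5.60 against liver (0.064), and livers 2, which the 12 libraries leave out, held 0.730 and 0.326 RPM. Without the BN-Lx heart the adjusted p was 0.0513 against brain and 0.034 against liver, and with DESeq2 it was 0.0625 and 0.00925.

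By the tissue rule of the study's methods, an arm belongs to a tissue when its reads, scaled by an outlier-corrected mean (ocm, the library's mean over arms of known loci without the 3 highest), are at least 5 times those of every other tissue in both strains. Heart met it for 9 of the 12 member arms and for 1.46% of all 687 arms with reads in the six-tissue set. The 10 heart arms were these 9 and mir-208b-5p. With at least 10 heart reads in each strain 8 member arms were left, without mir-208-3p, which has 3 reads in BN-Lx heart. With every library thinned to 26880 reads 6 were left, and mir-1-5p, mir-208-3p and mir-499-5p dropped out. mir-206-5p met the rule for brain, as did 19.1% of all arms, on 2 reads in each strain. mir-206-3p and mir-133b-5p met it for no tissue. Just inside the rule lay mir-499-5p, with 0.575 times the ocm in SHR heart and 0.0787 times in SHR kidney. In RPM, which is not the scale of the rule, that heart was 6.10 times kidney. At a fold of 10 both arms of mir-499 dropped out and 7 member arms were left, and at a fold of 50 only mir-1-3p, mir-133a-5p and both arms of mir-208 were left.

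**Figure D2:**
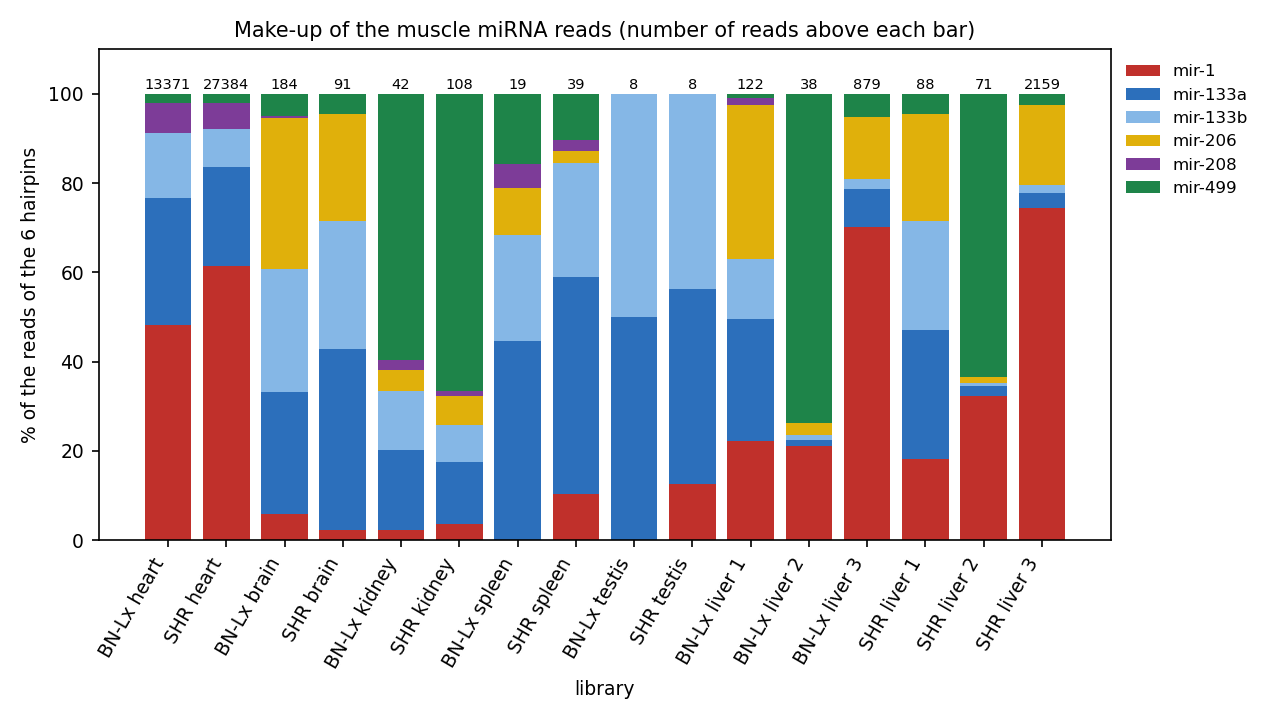
Share of each hairpin (%) in the reads of the 6 hairpins, for each of the 16 libraries, with the number of reads above each bar; testis bars rest on 8 reads each. mir-1 and mir-133 make up most of the bars of the hearts, mir-499 takes 59.5% to 73.7% in kidney and in the livers numbered 2, and mir-206 between 23.9% and 34.4% in brain and in the livers numbered 1.

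The make-up of the reads differed between tissues. Of the member reads in heart mir-1 took 48.2% (BN-Lx) and 61.5% (SHR), and mir-133a and mir-133b together 43.0% and 30.7%. mir-208 took 6.71% and 5.81%, and mir-499 2.06% and 1.98%. In brain mir-133a and mir-133b together took 54.9% and 69.2% and mir-206 33.7% and 24.2%, of 184 and 91 reads in BN-Lx and SHR. In kidney mir-499 took 59.5% and 66.7%, of 42 reads in BN-Lx and 108 in SHR. Outside heart these shares rest on few reads, and no library repeats them within a strain except in liver.

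The hearts of the strains can be set side by side but not tested, with 1 heart each. mir-1-3p was 1.68 times as high in SHR as in BN-Lx heart in RPM (1.63 to 1.72 by counting error) and mir-499-5p 1.32 times (1.12 to 1.57). mir-133b-3p was 0.786 times as high (0.740 to 0.835), and mir-133a-3p 0.959 times (0.906 to 1.02). Both ratios depend on the even division of the reads that these arms share. From the reads of 1 hairpin only, mir-133a-3p was 1.66 times (1.49 to 1.86) and mir-133b-3p 0.892 times (0.778 to 1.02) as high, and the 2 arms summed were 0.874 times (0.839 to 0.911) as high. These alternatives were chosen after the values were seen, and the reads of 1 hairpin only are picked by their 3′ ends. mir-133a-5p was 1.07 times and mir-208-5p 1.13 times as high. Relative to the ocm the value of mir-1-3p was 1.65 and that of mir-133b-3p 0.774.

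The next question was which strand of each hairpin the reads came from. In heart the hairpins other than mir-206, which had too few heart reads, ran from almost none to nearly all reads on the 5′ arm. For mir-1 the 5′ arm gave 0.574% of the reads in BN-Lx (0.404% to 0.790%) and 0.362% in SHR heart (0.277% to 0.465%). For mir-133b it gave 0 of 1933 and 0 of 2374 reads. For mir-208 it gave 99.7% (99.0% to 99.9%) and 99.2% (98.6% to 99.6%), and for mir-499 73.2% (67.5% to 78.3%) and 77.0% (73.2% to 80.5%). mir-1 and mir-133b lay near 0 in both hearts, and mir-208 and mir-499 far above them. The paper cautions that capture bias affects how often a small RNA is read, so that counts by arm may mislead. These are therefore shares of reads and need not be shares of the strands in the tissue.

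mir-133a was the hairpin with both arms at a similar level, with 47.3% (45.7% to 48.9%) of its reads in BN-Lx and 50.01% (48.7% to 51.3%) in SHR heart on the 5′ arm. This value depends on how the shared 3′ reads were divided. With only the reads that belong to no other hairpin, the 5′ arm took 80.3% in BN-Lx and 72.4% in SHR heart. Against all 3′ reads of mir-133a and mir-133b summed (3942 and 5386), the 1804 and 3013 reads of mir-133a-5p were the smaller number in both hearts.

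**Figure D3:**
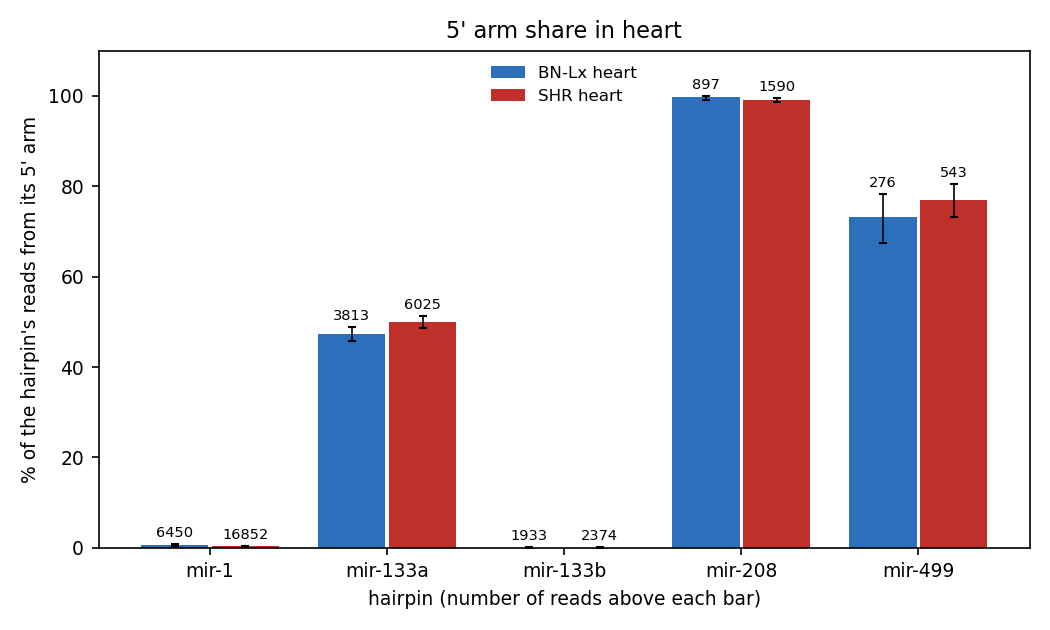
Share of the reads of each hairpin that came from its 5′ arm (%) in BN-Lx and SHR heart, with exact 95% intervals and the number of reads above each bar; mir-206 is left out, with 2 heart reads. mir-1 and mir-133b lie near 0, mir-133a near 50% with the shared 3′ reads divided evenly, mir-499 between 73.2% and 77.0% and mir-208 above 99%.

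Reads of mir-1 and mir-206 could be told apart in full. None of the values of these hairpins was a fraction, as a divided read would give, over 25624 reads of mir-1 and 672 of mir-206. At 26 positions of a library both hairpins held reads, and the counts were equal at 2 of them, with 1 read each. The first base at which the arms differ is base 11, and the shortest read had 15 nt. A further hairpin, mir-1b, is in RefSeq but not among the hairpins of the files, and its mature sequence differs from mir-1-3p by G17A. Of the 25525 reads of mir-1-3p, 12 (0.0470%) ended before that base.

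mir-133a and mir-133b shared most of their 3′ reads. Every position that ends before base 22 of the mature sequence held equal counts in both hairpins in all 16 libraries. These shared reads made up 79.5% (BN-Lx heart) and 69.2% (SHR heart) of the reads of both arms. Of the 808 reads in BN-Lx heart that tell the hairpins apart, 54.7% (51.2% to 58.2%) came from mir-133a, and of 1658 in SHR heart 69.2% (66.96% to 71.5%). In brain the telling reads were 26 and 11, of which 38.5% (20.2% to 59.4%) and 72.7% (39.0% to 94.0%) came from mir-133a in BN-Lx and SHR. mir-133a thus gave the larger part of the telling reads in both hearts, and more so in SHR, with 1 library each. That share depends on where the reads end. At the RefSeq 3′ end, forms with at least 10 reads held 11 and 10 reads of mir-133a in BN-Lx heart, against 201 and 122 of mir-133b. In SHR heart they held 211, 169 and 31 against 263 and 204, so in these forms mir-133b had more. Which hairpin gave more of all the 3′ reads cannot be told.

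Taken over all their 3′ ends, the telling reads of mir-133a and mir-133b differed in their 5′ ends. The reads of the 2 arms started mainly at the RefSeq position or 1 base later, which moves the seed from UUGGUCC to UGGUCCC. The commonest telling form of mir-133b and the later-starting form of mir-133a that ends with the RefSeq sequence are shown with their seeds. That mir-133a form made up 2.26% of its telling reads in BN-Lx and 14.7% in SHR heart, and the form with the same start and 1 more base at the 3′ end, not shown, 70.1% and 55.7%.
mir-133b-3p, RefSeq start: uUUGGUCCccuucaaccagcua
mir-133a-3p, 1 base later: uUGGUCCCcuucaaccagcug
Of the reads that belong to mir-133a alone, 72.6% (68.2% to 76.7%) in BN-Lx heart and 70.7% (68.005% to 73.4%) in SHR heart started 1 base later. Of those that belong to mir-133b alone, 39.1% (34.0% to 44.3%) and 44.9% (40.5% to 49.3%) did so. The intervals of the hairpins did not overlap in either heart. These reads are chosen by their 3′ ends, so they need not stand for the reads that end earlier. The difference rests largely on the mir-133a form that runs 1 base past the RefSeq 3′ end. At the RefSeq 3′ end in SHR heart, the RefSeq start held 211 reads of mir-133a and the later start 169, against 263 and 204 of mir-133b. In BN-Lx heart they held 11 and 10 against 201 and 122. At that end the RefSeq start was the more common for both hairpins, with few mir-133a reads in BN-Lx.

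**Figure D4:**
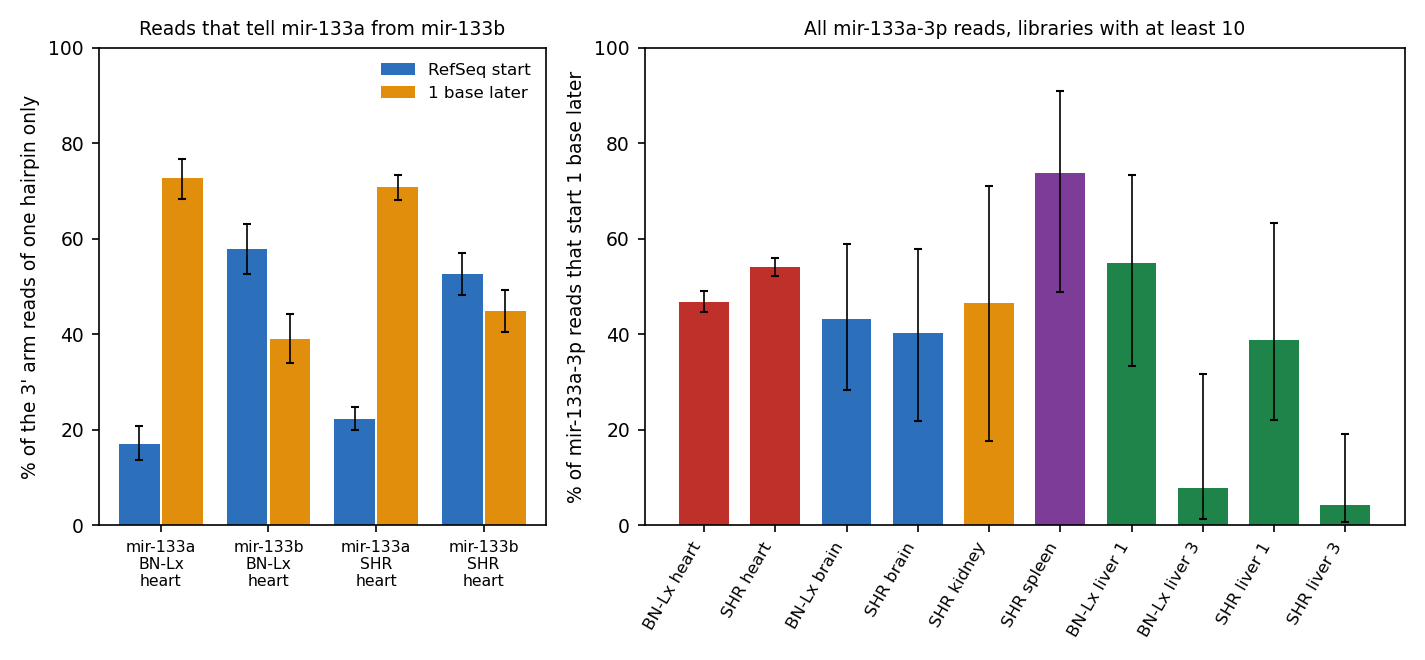
Left, share of the 3′ arm reads of 1 hairpin only that start at the RefSeq position or 1 base later (%), for mir-133a and mir-133b in each heart; right, share of all mir-133a-3p reads that start 1 base later, in the 10 libraries with at least 10 reads. Bars carry exact 95% intervals; in livers numbered 3 the share is 4.29% and 7.69%, below the 38.8% and 54.9% of livers numbered 1.

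The other arms had 1 main start in heart. The commonest start took 97.1% of the heart reads of mir-1-3p, 92.1% of mir-133a-5p, 99.4% of mir-208-5p and 88.2% of mir-499-5p, in each case the RefSeq start. mir-499-3p was split, with 51.8% of its 199 heart reads 1 base before the RefSeq start. The share at the commonest start in heart was compared with that in other libraries for the 4 arms with at least 10 reads in 4 or more of them. For mir-1-3p it was 97.1% in heart and 99.0% in 6 other libraries (exact permutation test, two-sided, p = 0.214, Benjamini-Hochberg adjusted p = 0.444). For mir-133a-3p it was 50.5% against 38.7% in 8 libraries and for mir-133b-3p 54.5% against 71.5% in 7 (exact adjusted p = 0.652 and 0.444). For mir-499-5p it was 88.7% against 89.6% in 6 libraries (exact adjusted p = 0.929). The results of mir-133a-3p and mir-133b-3p do not count separately, since most of their reads in these libraries were shared. The lowest mir-133a-3p shares, 7.69% and 4.29%, were those of livers 3 of BN-Lx and SHR, with 1.5 of 19.5 and 1.5 of 35 reads. The smallest p possible lay between 0.0444 and 0.0714 for the 4 arms, so none could pass 0.05 after adjustment, and these tests do not show whether the shares differ. The test treats libraries as exchangeable although those of a six-tissue rat share an animal.

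The single livers were compared next, since the 3 livers of a strain are the only replicates. mir-1-3p had 27, 8 and 616 reads in livers 1, 2 and 3 of BN-Lx (57.7, 5.84 and 528 RPM) and 16, 23 and 1609 in those of SHR (31.9, 7.497 and 498 RPM). Liver 3 stood far above the other two in both strains. The level in liver 3 was 90.3 times that of liver 2 in BN-Lx (45.5 to 210) and 66.5 times in SHR (44.1 to 105).

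mir-206-3p, the member nearly lacking in heart, took 42, 1 and 123 reads in livers 1 to 3 of BN-Lx (89.7, 0.730 and 105 RPM) and 21, 1 and 386 in those of SHR (41.9, 0.326 and 119.5 RPM). Here livers 1 and 3 were high and liver 2 was low. The BN-Lx livers held 25.5, 0.5 and 19.5 reads of mir-133a-3p and the SHR livers 24.5, 0.5 and 35. For mir-133b-3p the counts were 16.5, 0.5 and 19.5 (BN-Lx) and 21.5, 0.5 and 36 (SHR). In RPM both arms were highest in liver 1 and lowest in liver 2 in each strain, but 64.3% to 100% of their reads in a liver were shared. For mir-133a-5p the counts were 8, 0 and 56 (BN-Lx) and 1, 1 and 37 (SHR), with liver 3 highest.

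mir-499-5p differed from these. The BN-Lx livers held 1, 27 and 45 reads of it (2.14, 19.7 and 38.5 RPM) and the SHR livers 4, 44 and 47 (7.98, 14.3 and 14.6 RPM). The ratio of liver 3 to liver 2 was 1.95 in BN-Lx (1.19 to 3.28) and 1.01 in SHR (0.658 to 1.57). mir-208 had 2 reads in BN-Lx liver 1 and none in the other 5 livers.

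**Figure D5:**
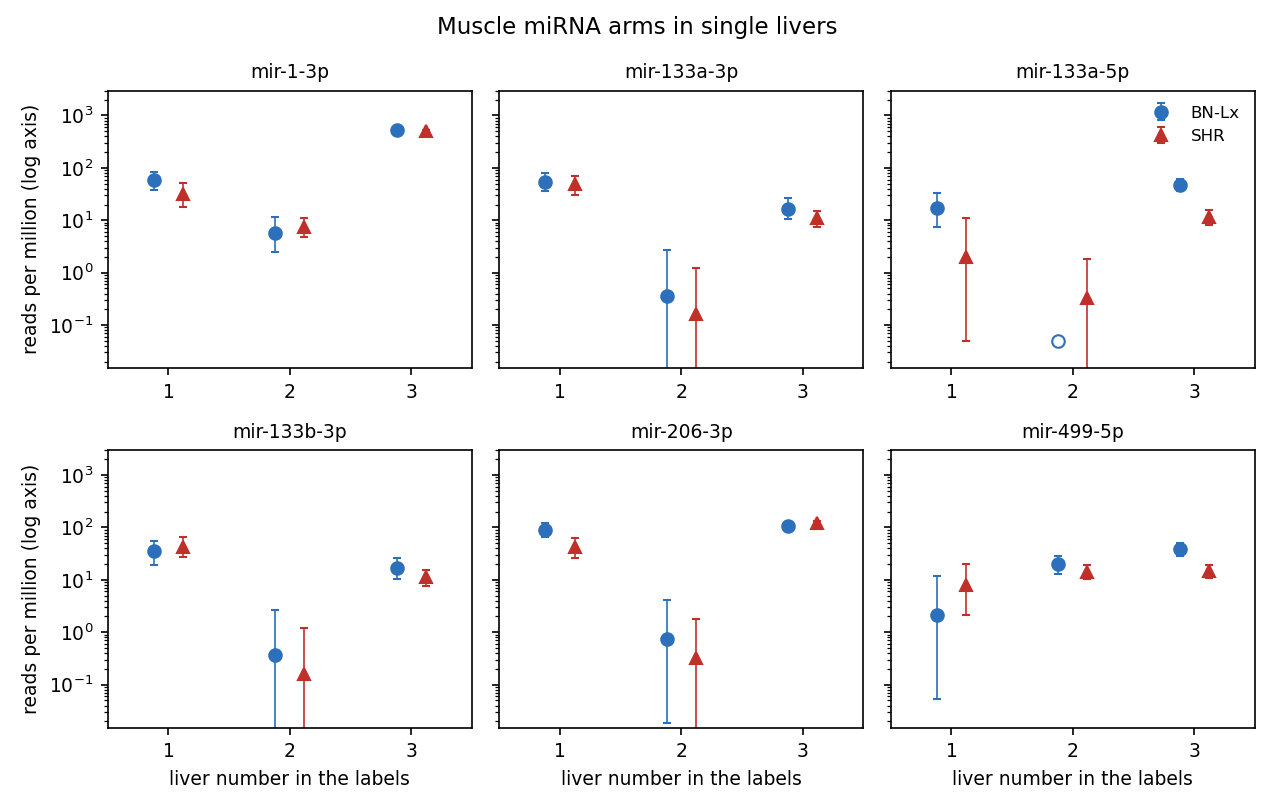
RPM (log axis) of 6 member arms in livers 1, 2 and 3 of BN-Lx (circles) and SHR (triangles), with exact 95% intervals; the hollow circle is 0 reads, and intervals that run off the axis reach lower. In both strains liver 2 is lowest for mir-1-3p, the mir-133 arms and mir-206-3p, but not for mir-499-5p.

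Of 251 arms with at least 10 reads in liver 3 of both strains, 5 (1.99%) were at least 10 times as high in liver 3 as in liver 2 in both strains. All 5 were member arms, namely mir-1-3p, mir-133a-3p, mir-133a-5p, mir-133b-3p and mir-206-3p, out of 6 members in this comparison. mir-133a-3p and mir-133b-3p do not count separately here, since 94.9% and 95.8% of their reads in livers 3 of BN-Lx and SHR were shared. Reads of 1 hairpin only were 1 of mir-133a and 1 of mir-133b in BN-Lx, and 1 and 2 in SHR. The median ratio of the other arms was 1.25 in BN-Lx and 0.929 in SHR, and their highest ratios were 8.73 (mir-328-3p) and 10.45 (mir-181a-1-3p). This comparison and its fold were chosen after the values were seen, and it carries no test. Arms were let in by their reads in liver 3, so arms low there could not enter, and the reverse direction was not counted. Livers 2 and 3 are the further livers, and liver 1 comes from the six-tissue rats. In livers 2 and 3 the mir-143 and mir-145 list had 44395 and 70377 RPM in BN-Lx and 50311 and 44933 RPM in SHR, and mir-122 had 460432 to 496685 RPM. The list of fibroblast-rich tissue moved the other way. It went from 79402 RPM in liver 2 to 24799 in liver 3 of BN-Lx and from 89997 to 71752 in SHR. Its mir-29a-3p went from 8508 to 1059 RPM and from 3527 to 405 RPM. That arm was higher in brain (110994 and 127769 RPM in BN-Lx and SHR) than in heart (35129 and 48186.5 RPM). The other arms of the list are not given singly. The part of other cell types in these differences was not tested.

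The members of liver 3 did not stand in the ratios of heart. For every 1000 reads of mir-1-3p, heart held 139 reads of mir-208-5p in BN-Lx (130 to 150) and 93.9 in SHR (89.1 to 98.9), whereas liver 3 held 0 beside 616 and 0 beside 1609 reads of mir-1-3p, which allows up to 4.87 and 1.86. For mir-206-3p the order was turned around, with 0.312 (0.0378 to 1.13) and 0 in the hearts but 199.7 (163 to 243) and 239.9 (214 to 268) in livers 3 of BN-Lx and SHR. mir-133a-5p stood at 281 and 179 in the hearts and at 90.9 (67.9 to 120) and 23.0 (16.1 to 31.8) in livers 3. mir-499-5p stood at 31.5 and 24.9 in the hearts and at 73.1 (52.7 to 98.9) and 29.2 (21.4 to 39.0) in livers 3, so that in SHR its intervals overlapped.

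Between the strains, edgeR's quasi-likelihood test with Benjamini-Hochberg adjustment over 271 arms of the 6 livers called 0 arms (0% of those tested), and 6 arms had an unadjusted p under 0.05. By DESeq2 the calls were 0, and 9 arms had an unadjusted p under 0.05. 6 member arms were tested and 0 called. The SHR to BN-Lx log2 difference was 0.11 (standard error 1.77, edgeR adjusted p = 0.995) for mir-1-3p, -0.07 (1.69) for mir-206-3p and -0.69 (0.89) for mir-499-5p. For mir-133a-5p it was -1.91 (1.58), for mir-133a-3p -0.48 (1.72) and for mir-133b-3p -0.08 (1.66), all at edgeR adjusted p = 0.995. Each of these differences but that of mir-133a-5p was smaller than its standard error. With the liver number as a block, the difference of mir-1-3p was -0.20 (standard error 0.42, edgeR adjusted p = 0.875). That fit treats same-numbered livers as pairs, although the labels name no pairs. Leaving out 1 liver 3, without the block, gave 3.01 without the BN-Lx and -3.68 without the SHR liver 3 (edgeR adjusted p = 0.999 for both).

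Arms of other hairpins were ranked by how alike they were to 2 members over the 12 six-tissue libraries, by Pearson's correlation of log2(RPM + 1), given as a description. Nearest to mir-1-3p were mir-483-3p (r = 0.724), mir-322-5p (r = 0.711) and mir-208b-3p (r = 0.680). Nearest to mir-206-3p were mir-31-5p (r = 0.787), mir-194-2-3p (r = 0.745) and mir-183-3p (r = 0.718). The 12 libraries share 2 rats and differ in depth, and mir-208b-3p and mir-483-3p have at most 7 reads in any of them.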

How the data were processed

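The authors size-selected 15 to 40 nt RNA from mirVana total RNA, made libraries with the Ambion SREK kit (more PCR cycles for testis and SHR liver 1), sequenced them on SOLiD, trimmed the linker and mapped reads with SHRiMP to hairpins found by miRIntess on RGSC3.4 and in miRBase. Only perfect matches were kept. The deposited values are estimated counts of reads per start and end position on a hairpin, with reads of several hairpins divided evenly. Six-tissue files hold reads of 17 nt or more, those of the further livers 15 nt or more. No normalization had been applied. PCR duplicates cannot be removed.

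Reads within 20 nt of a hairpin's commonest midpoint were counted to that arm, other reads to the opposite arm. Counts were rounded for edgeR 4.0.16 (R 4.3.3; TMM, filterByExpr) and DESeq2 1.42.0, which were tested on simulated data. RPM used the total of each library and the ocm 598 arms of known loci. Named are all member arms, mir-208b, the list markers and the 3 most alike arms. The series' design text gives separate rats for the livers, while each strain has 1 library of every other tissue. Over 271 arms the deviations of same-numbered livers of the strains correlated at 0.668, 0.57 and 0.3, and those of differently numbered livers at -0.581 to 0.205. The labels give the numbers but no pairing, so the pairing is read from these same data. The fit with the replicate number as a block was run as an alternative. The lists mir-122 (hepatocyte), mir-9, mir-124 and mir-128 (brain) and mir-34c, mir-202 and mir-449a (testis) were highest in their own tissue, while mir-192, mir-194 and mir-204 (kidney) were highest in BN-Lx liver 1, and mir-142, mir-144, mir-150, mir-223 and mir-451 (blood) and mir-21, mir-29a, mir-199a and mir-214 (fibroblast-rich tissue) were highest in spleen. mir-126 (endothelium) had 18572 and 23341 RPM in heart, up to 20203 RPM elsewhere in the six-tissue set and up to 31992 RPM in the further livers. mir-208b and mir-378, with mir-486 not found, had 23638 and 27813 RPM in heart and up to 24564 RPM elsewhere, in SHR kidney. Members and lists were chosen with earlier results of these data known. The piRNA clusters were not used here.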

Additional observations from a re-analysis of the deposited data

How the results depend on the processing

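The 8 member arms called higher in heart stayed 8 under RLE, total-read and ocm scaling, without testis, with all 16 libraries and without either heart, and were 9, with mir-208-3p, without the filter. DESeq2 called 7 and gave no adjusted p for mir-1-5p, whose p was 0.056. mir-1-5p, mir-133a-5p, mir-208-5p and mir-499-3p had entered the main fit through heart. These counts, and the calls of these arms against single tissues, are thus no support of their own. Of the 40 calls against single tissues, those of 5 arms held under every edgeR alternative. mir-1-5p, mir-499-3p and mir-499-5p lost some, among them mir-499-5p against kidney with all 16 libraries (edgeR adjusted p 0.061) and mir-1-5p against brain and liver with DESeq2 (adjusted p 0.125 and 0.379). With no replicate block, that is without the strain term, the count was 8. With the mir-133 3′ arms summed, an alternative chosen after seeing the data, it was 7 of 8. Calls over all arms fell from 90 to 44 and 48 without the BN-Lx and SHR heart. The tissue rule kept 4 member arms at a fold of 50. The 5′ share of mir-133a rose to 54.8% and 55.5% in BN-Lx and SHR heart with reads of at least 20 nt and to 80.3% and 72.4% with reads of 1 hairpin only. For mir-208 in SHR heart it was 99.7% with reads of at least 20 nt.

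Between the livers 0 arms were called under every alternative, including the replicate block (0 arms, smallest edgeR adjusted p 0.458), so the block changed no call. The direction of the uncalled differences was not stable. mir-1-3p fell to -0.20 with the replicate block, -0.13 with the replicate block and no filter (chosen after seeing the data), -0.13 with total reads and -0.11 with the ocm. mir-133b-3p was 0.06 with DESeq2, 0.030 with RLE, 0.054 with total reads and 0.015 with the ocm. mir-206-3p was 0.034 without the filter and 0.46 in the 4 further livers. Leaving out 1 liver gave -3.68 to 3.01 for mir-1-3p, -1.65 to 0.81 for mir-133a-3p, -1.14 to 0.73 for mir-133b-3p, -2.03 to 0.66 for mir-206-3p and -1.16 to 0.06 for mir-499-5p. The heart share at the commonest start turned to -9.28 points for mir-133a-3p with reads of at least 20 nt, where another start was commonest, and to 3.93 points for mir-499-5p with at least 5 reads. Without 1 heart it ran from -2.33 to 0.451 points for mir-499-5p. The causes were not tested. Of 5 member arms 10 times higher in livers 3 than in livers 2, 5 remained relative to the ocm, with reads of at least 17 nt and with reads of at least 20 nt. Testis depth limits what 0 reads can show there.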
